A study of Mus musculus with 35 samples.

Results

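The genes described here are Pdcd1, Ctla4, Lag3, Havcr2, Tigit, Cd160, Btla and Entpd1, which encode inhibitory receptors or inhibitory enzymes of the T cell surface, and Tox, which encodes a transcription factor linked to T cell exhaustion. They were listed by name, with earlier results of these data known. All 9 were found among the 48709 genes of the deposited count tables, each by its Ensembl identifier, and all 9 were among the 13819 genes with enough reads to be tested. In GRCm38 they are Pdcd1 (ENSMUSG00000026285, chr1:94038305-94052553), Ctla4 (ENSMUSG00000026011, chr1:60887000-60915832), Lag3 (ENSMUSG00000030124, chr6:124904361-124911705), Havcr2 (ENSMUSG00000020399, chr11:46454935-46481255), Tigit (ENSMUSG00000071552, chr16:43648867-43664146), Cd160 (ENSMUSG00000038304, chr3:96798763-96829351), Btla (ENSMUSG00000052013, chr16:45224315-45257670), Entpd1 (ENSMUSG00000048120, chr19:40612366-40741602) and Tox (ENSMUSG00000041272, chr4:6686353-6991557). RNA was sequenced from OT-I CTLs, which are cytotoxic CD8+ T cells of mice that carry 1 transgenic T cell receptor, specific for an ovalbumin peptide. Of 7 groups of 5 biological replicates, 1 was taken untreated at the start of the experiment (0 h) and the others came from 24 h of culture at 1 of 3 pH values (7.4, 7 and 6.6) in medium that either lacked IL-2 or held 200 IU/mL of the mouse cytokine. According to the study's methods, the CTLs had been activated in vitro with antibodies to CD3 and CD28 and expanded in IL-2, so that every group shares that history. Neither the age nor the sex of the mice is given in the labels.

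Inhibitory receptors appear on T cells after activation and limit how strongly they respond. PD-1 (Pdcd1) recruits phosphatases that dampen signals from the T cell receptor and CD28, and CTLA-4 (Ctla4) competes with CD28 for the ligands CD80 and CD86. LAG-3 (Lag3) binds MHC class II, TIM-3 (Havcr2) binds galectin-9 among other ligands, and TIGIT (Tigit) competes with CD226 for the poliovirus receptor. CD160 (Cd160) and BTLA (Btla) share the ligand HVEM, the product of Tnfrsf14. CD39 (Entpd1) is an enzyme that breaks down extracellular ATP, and CD73 (Nt5e) turns its product into adenosine. TOX (Tox) is a nuclear HMG-box protein needed for the exhausted state during chronic stimulation, in which several of these receptors are kept on together.

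The label CD8+ T cell was checked against marker genes. All 9 CD8 T cell markers were above 1 CPM (counts per 1000000 reads, with library sizes scaled by TMM) in every group, with group means of 719 to 1401 CPM for Cd8a and 411 to 592 CPM for Cd3e. Summed over the list, that level ranged from 3265 to 14277 CPM across libraries, and most of this range came from the granzyme gene Gzmb, at group means of 65.7 to 7955 CPM. Markers of other cells were low. Ms4a1 and Pax5 of B cells, Siglech of plasmacytoid dendritic cells, Hbb-bs of red cells and Ppbp of platelets had no read in any library, and the NK cell receptor gene Ncr1 did not exceed 0.0694 CPM. Summed B cell markers were at 1.02 to 6.10 CPM, summed myeloid and dendritic cell markers at 0.479 to 8.75 CPM, highest at pH 7.4 and pH 7 without IL-2, and summed red cell and platelet markers at 0.00 to 0.235 CPM. The summed CD4 and regulatory T cell markers were at 17.4 to 63.7 CPM, almost all of it Zbtb7b, with Cd40lg at most at 0.0841 CPM, Cd4 at most at 2.48 CPM and Foxp3 at most at 5.50 CPM. The NK cell list was at 122 to 705 CPM through Eomes and Klrb1c, which activated CD8 T cells also express. Reads outside annotated genes were taken as a share of all counts deposited for a library, those assigned to no gene included. They made up 2.58% to 5.95% at 0 h and with IL-2 at pH 7.4 and pH 7. In the groups without IL-2 and in the pH 6.6 group with it they made up 6.47% to 11.1%. This share moved with the same groups as several genes below, and its part in their values was not tested. In bulk RNA, fewer cells expressing a gene and less RNA per cell cannot be told apart.

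Pdcd1, Ctla4 and Tigit were the receptor genes that rose at pH 6.6 with and without IL-2 and fell with IL-2 at every pH. For Ctla4 and Tigit the falls with IL-2 at pH 6.6 were small, and their calls were not stable, as given below. Cd160 moved the other way from Pdcd1, Ctla4 and Tigit in each comparison. For these 4 genes, the 250 bases before a transcription start in RefSeq (GRCm38.p6) are shown, read 5′ to 3′ on the gene's strand. None of these bases lies in an exon annotated by GENCODE M21. The windows are chr1:94052554-94052803 (minus strand), chr1:60908775-60909024 (plus strand), chr16:43664185-43664434 (minus strand) and, for the start of the shorter Cd160 transcript, which lies within an intron of the longer ones, chr3:96814522-96814771 (minus strand). Capitals mark matches, on either strand, to the NFAT core GGAAA, an AP-1 site TGANTCA, the cAMP response half-site TGACG, a STAT5 site TTCNNNGAA or the NR4A site AAAGGTCA.
Pdcd1: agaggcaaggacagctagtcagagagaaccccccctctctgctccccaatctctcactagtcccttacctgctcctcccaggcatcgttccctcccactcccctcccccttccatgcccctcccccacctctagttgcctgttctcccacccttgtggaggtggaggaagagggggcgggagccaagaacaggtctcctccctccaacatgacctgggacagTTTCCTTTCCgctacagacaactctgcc
Ctla4: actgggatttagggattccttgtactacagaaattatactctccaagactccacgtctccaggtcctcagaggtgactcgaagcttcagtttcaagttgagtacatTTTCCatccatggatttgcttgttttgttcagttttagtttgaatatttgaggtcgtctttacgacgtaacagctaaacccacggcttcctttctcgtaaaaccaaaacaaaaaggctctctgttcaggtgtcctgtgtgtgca
Tigit: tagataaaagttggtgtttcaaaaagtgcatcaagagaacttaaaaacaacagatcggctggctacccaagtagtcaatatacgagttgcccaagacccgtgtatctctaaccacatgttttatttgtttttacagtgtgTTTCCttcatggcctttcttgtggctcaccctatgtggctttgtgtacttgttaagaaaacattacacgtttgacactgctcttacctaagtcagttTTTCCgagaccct
Cd160: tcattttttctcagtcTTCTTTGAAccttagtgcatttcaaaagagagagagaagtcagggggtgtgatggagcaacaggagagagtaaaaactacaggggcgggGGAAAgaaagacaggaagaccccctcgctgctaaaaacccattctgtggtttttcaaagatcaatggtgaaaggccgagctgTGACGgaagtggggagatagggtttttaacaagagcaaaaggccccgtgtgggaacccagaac
The Pdcd1 window held 2 adjoining NFAT cores, from base -28 to base -19 counted from the start. The Tigit window also held 2 NFAT cores and the Ctla4 window held 1, and none of the other motifs was found in these 3 windows. The Cd160 window shown held 1 NFAT core, 1 cAMP response half-site and 1 STAT5 site, which ran from base -234 to base -226. The window before the start of the longer Cd160 transcripts (chr3:96829352-96829601, minus strand), not shown, held no match to any of the 5 motifs. The NFAT core occurred in 55.6% of 32851 RefSeq windows of the same length, the cAMP response half-site in 17.8%, the STAT5 site in 7.02%, the AP-1 site in 6.75% and the NR4A site in 1.34%. Among the members, 9 windows of 7 genes were available, and 5 of the 9 held an NFAT core, which is the share in all windows. The Havcr2 window held 1 AP-1 site, TGATTCA, which ran from base -200 to base -194. Each of the 2 Entpd1 windows, not shown, held 1 cAMP response half-site, and the second also held 2 NFAT cores. The Btla window held no match to any of the 5 motifs. These are matches of letters, not binding sites.

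Per transcript length, Ctla4 was the most abundant of the 9 genes in 5 of the 7 groups and Cd160 in the others. In TPM, transcripts per 1000000, the unit used here to compare genes with each other, Ctla4 was at 807 ± 77.6 TPM (SD, n = 5) at pH 6.6 without IL-2 and 74.8 ± 20.5 TPM at pH 7.4 with IL-2. Cd160 was at 183 ± 18.04 TPM at pH 7 with IL-2 and 25.4 ± 5.80 TPM at pH 6.6 without IL-2. Tox and Btla were the least abundant, with group means of 1.54 to 4.42 TPM for Tox and 2.98 to 5.82 TPM for Btla. Summed over the 9 genes, the level was 788 ± 106 TPM at 0 h. Without IL-2 it was 913 ± 80.0 TPM at pH 7.4, 937 ± 65.0 TPM at pH 7 and 1192 ± 72.6 TPM at pH 6.6. The corresponding sums with IL-2 were 486 ± 25.6 TPM, 549 ± 22.99 TPM and 992 ± 94.1 TPM at the same pH values. Ctla4 alone made up 15.3% of the sum with IL-2 at pH 7.4 and 58.8% with IL-2 at pH 6.6, while Cd160 went from 33.4% to 6.57%.

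**Figure D1:**
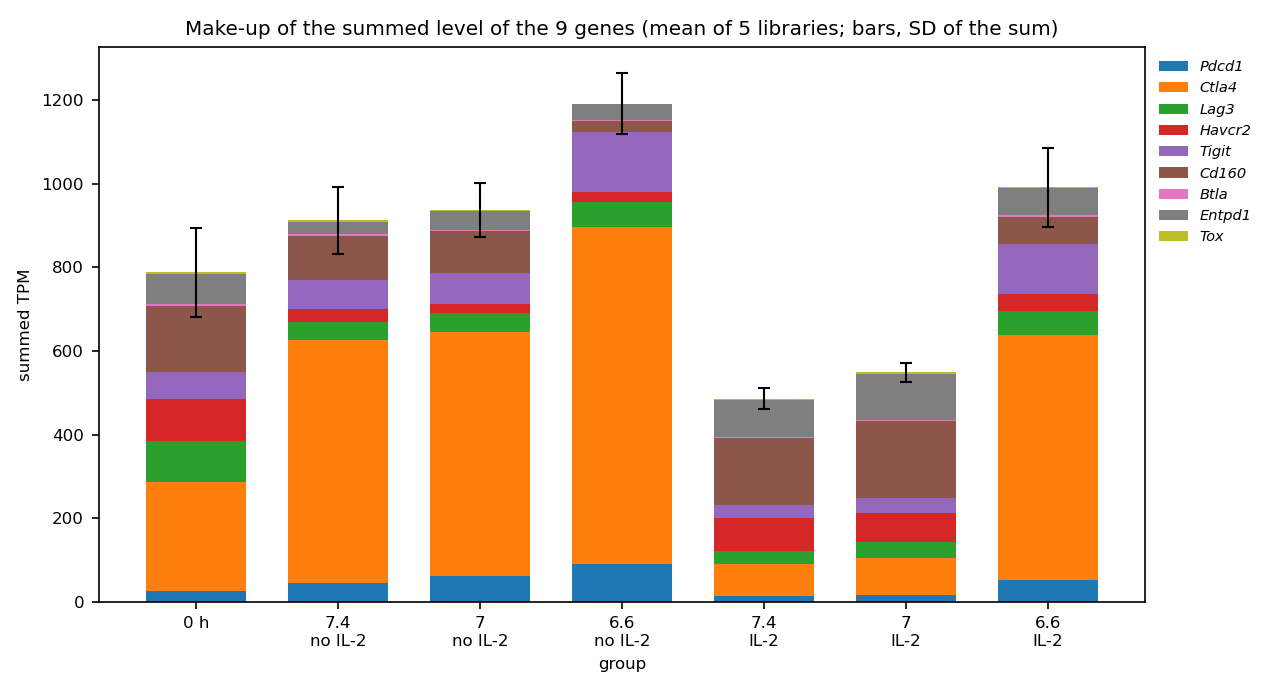
Summed TPM of the 9 genes (y axis) in the 7 groups (x axis, pH and IL-2), with 1 colour per gene for the mean of 5 libraries and black bars for the SD of the sum. The column at pH 7.4 with IL-2 is the lowest and the column at pH 6.6 without IL-2 the highest, and the part that belongs to Ctla4 differs most between columns.

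**Figure D2:**
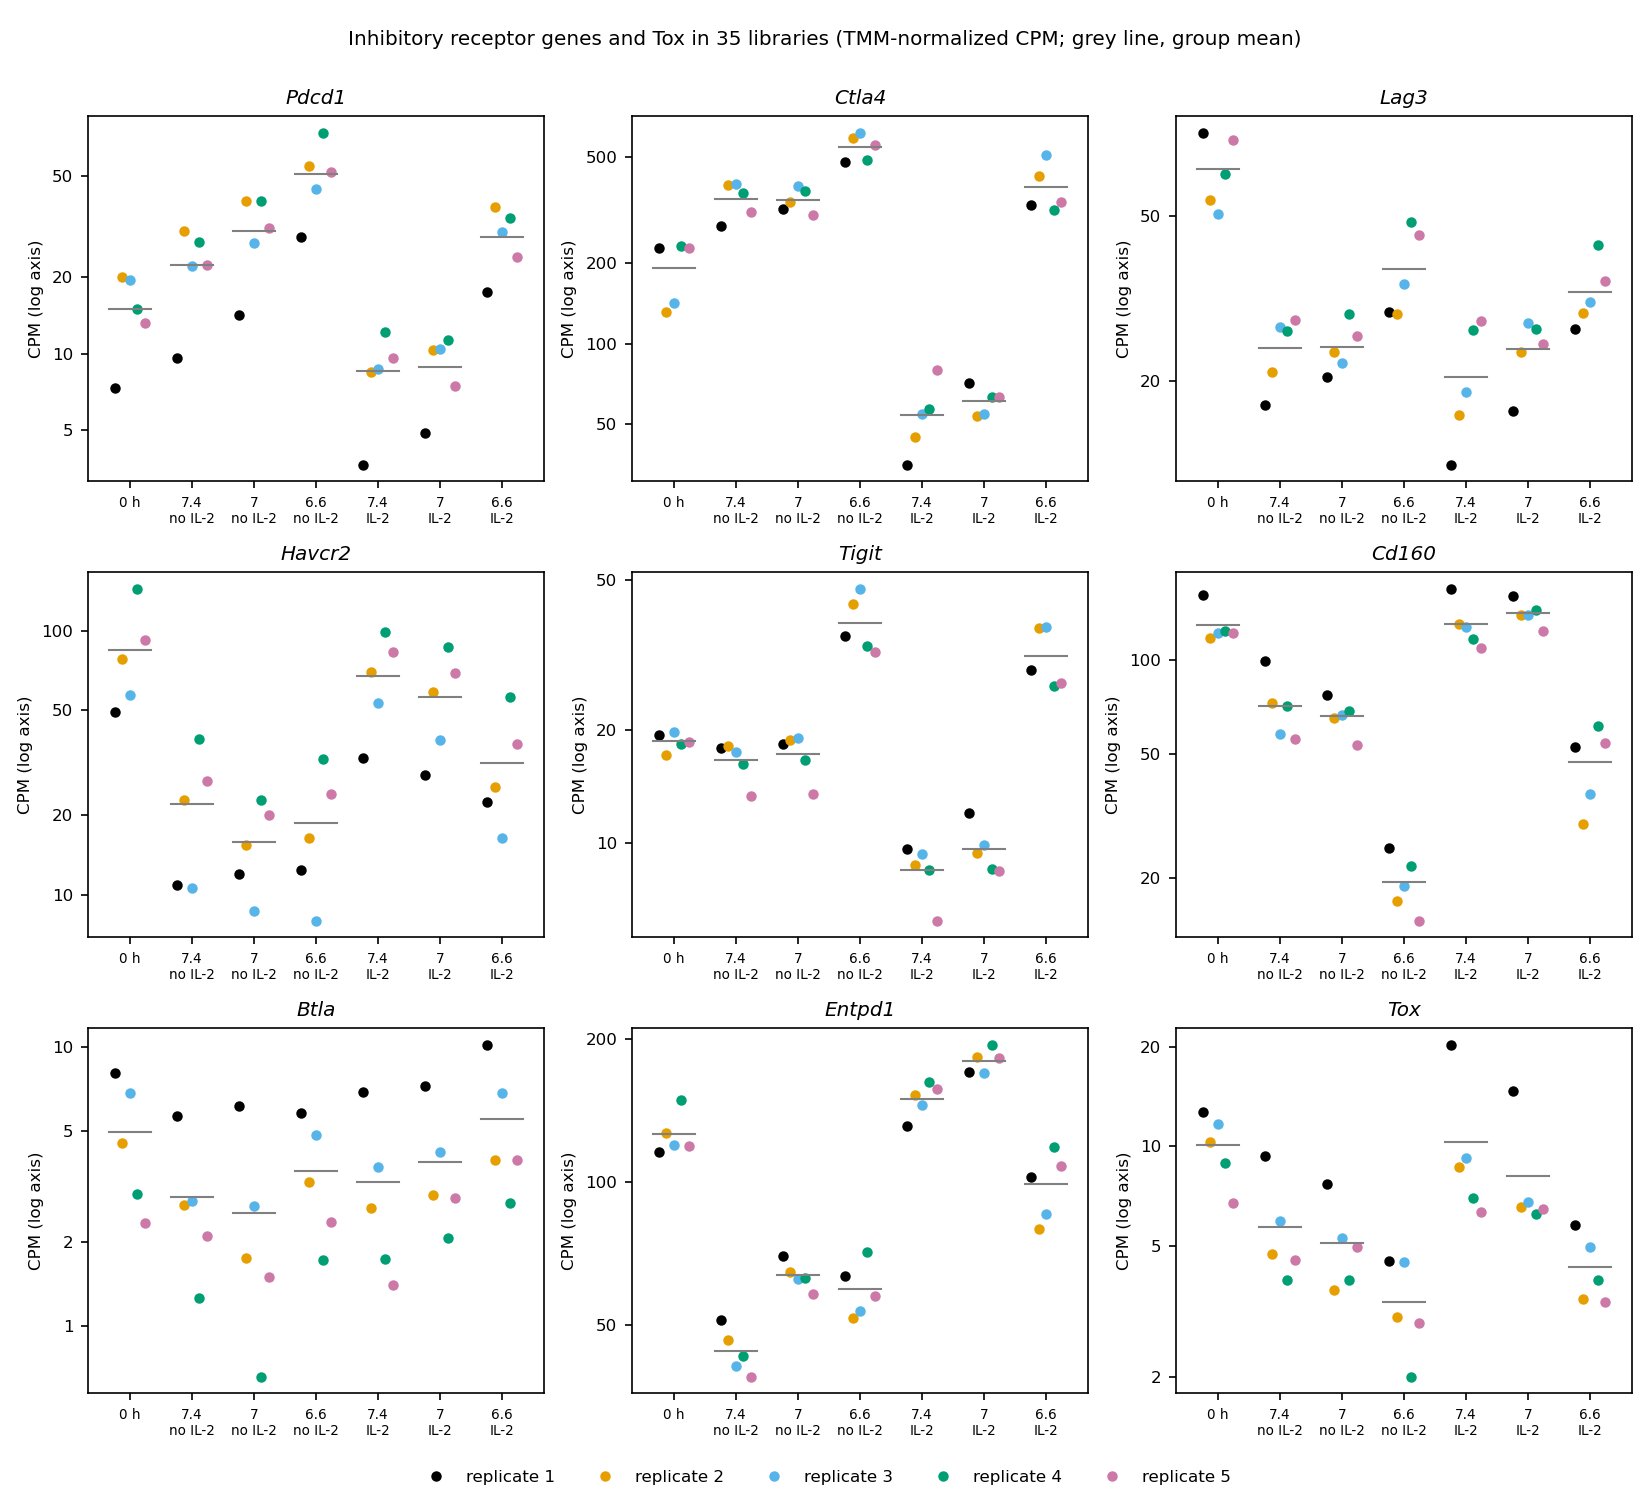
CPM on a log axis (y) of each gene in the 35 libraries by group (x), with 1 colour per replicate number and a grey line for the group mean. Ctla4, Pdcd1 and Tigit are lowest with IL-2 at pH 7.4 and pH 7, Cd160 is lowest at pH 6.6 without IL-2, and the order of the replicates recurs across groups for Pdcd1, Havcr2, Btla and Tox.

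Comparing pH 6.6 with pH 7.4 when IL-2 was given addressed what acidity did to CTLs that received the cytokine. Of the 9 genes, 5 rose and 4 fell at pH 6.6. Across all genes tested, 76.3% passed the same threshold, an adjusted p of 0.05, so that passing it was common. Of the 9 genes, 6 changed by a log2 fold change of at least 1 in either direction, against 34.8% of all genes. The median of the 9 log2 fold changes was 0.71, against -0.07 over all genes.

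Ctla4 rose most. At pH 7.4 with IL-2 it was at 35.2, 44.6, 54.7, 56.8 and 79.7 CPM in replicates 1 to 5, and at pH 6.6 with IL-2 it was at 331, 426, 512, 318 and 339 CPM. Each library at pH 6.6 lay far above every library at pH 7.4, and the fold change was 7.18, or 2.84 ± 0.18 on the log2 scale (SE, adjusted p = 5.77e-15). Ctla4 ranked higher in absolute change than 97.1% of the genes tested. Tigit was at 9.65, 8.74, 9.36, 8.48 and 6.23 CPM at pH 7.4 and at 28.8, 37.3, 37.4, 26.1 and 26.6 CPM at pH 6.6. Its groups did not overlap either, with a fold change of 3.68 (log2 1.88 ± 0.10, adjusted p = 8.24e-18). Pdcd1 was at 3.65, 8.47, 8.66, 12.2 and 9.57 CPM at pH 7.4 and at 17.5, 37.9, 30.2, 34.1 and 24.02 CPM at pH 6.6. The lowest library of each group was replicate 1, and all 5 replicates rose, by 3.45-fold on average (log2 1.79 ± 0.13, adjusted p = 3.47e-14). Lag3 rose less, from 12.5, 16.5, 18.8, 26.5 and 27.9 CPM to 26.7, 29.1, 30.9, 42.5 and 34.8 CPM. The groups overlapped, but each replicate was higher at pH 6.6 than its counterpart at pH 7.4, by 1.63-fold (log2 0.71 ± 0.13, adjusted p = 1.72e-05). Btla, the least abundant receptor, went from 6.85, 2.64, 3.69, 1.74 and 1.40 CPM to 10.2, 3.92, 6.79, 2.75 and 3.91 CPM. All 5 replicates rose although the groups overlapped, with a log2 fold change of 0.80 ± 0.17 (adjusted p = 5.98e-05). Without the replicate number in the model the Btla change did not pass (log2 0.74, adjusted p = 0.177).

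Cd160, which binds the same ligand as BTLA, fell most. It was at 169.8, 130.4, 128, 117 and 109.6 CPM with IL-2 at pH 7.4 and at 52.7, 29.7, 37.2, 61.4 and 54.4 CPM at pH 6.6. The groups did not overlap, and the level was 2.78-fold lower at pH 6.6 (log2 -1.47 ± 0.12, adjusted p = 7.48e-13). Tox went from 20.3, 8.64, 9.19, 6.95 and 6.32 CPM to 5.78, 3.44, 4.95, 3.95 and 3.37 CPM. Replicate 1 stood above the other replicates in each group, and Tox fell in 5 of 5 replicates with no overlap, by 2.26-fold (log2 -1.18 ± 0.15, adjusted p = 1.72e-08). Havcr2 went from 33.04, 69.6, 53.4, 98.6 and 83.3 CPM to 22.5, 25.5, 16.4, 56.3 and 37.2 CPM. Replicate 4 was the highest at each pH and the groups overlapped, yet every replicate fell, by 2.21-fold on average (log2 -1.14 ± 0.13, adjusted p = 1.73e-09). Entpd1 went from 131, 152, 146, 163 and 157 CPM to 103, 79.7, 85.5, 119 and 108 CPM. Its fall was the smallest of the 4, at 1.52-fold (log2 -0.61 ± 0.09, adjusted p = 1.30e-07), with no overlap.

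In the absence of IL-2, acidity addressed the same question in cells deprived of the cytokine. There 7 of the 9 genes passed the threshold, 5 upwards and 2 downwards, against 67.0% of all genes. The direction was that seen with IL-2 for Pdcd1, Ctla4, Lag3, Tigit, Cd160 and Tox, whereas Entpd1 rose without IL-2 and fell with it. These comparisons use different libraries at each pH.

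Pdcd1 was at 9.62, 30.3, 22.1, 27.6 and 22.4 CPM at pH 7.4 without IL-2 and at 28.8, 54.97, 44.6, 74.2 and 51.7 CPM at pH 6.6 without IL-2. Replicate 1 was the lowest at each pH, and its value at pH 6.6 was below the highest value at pH 7.4, but all 5 replicates rose (log2 1.22 ± 0.12, adjusted p = 1.99e-10). Tigit was at 17.9, 18.1, 17.5, 16.2 and 13.3 CPM and at 35.3, 43.1, 47.3, 33.4 and 32.2 CPM. It rose 2.30-fold with no overlap (log2 1.20 ± 0.09, adjusted p = 7.01e-13). Ctla4, already high at pH 7.4, was at 276, 394, 397, 368 and 313 CPM there and at 481, 588, 619, 489.6 and 555 CPM at pH 6.6. The rise was 1.56-fold (log2 0.64 ± 0.17, adjusted p = 0.00133), again with no overlap. Lag3 was at 17.5, 21.04, 26.9, 26.4 and 28.03 CPM and at 29.3, 28.9, 34.3, 48.4 and 45.0 CPM, a rise of 1.54-fold (log2 0.62 ± 0.13, adjusted p = 0.000125). Entpd1 was at 51.2, 46.4, 40.9, 43.0 and 38.9 CPM and at 63.3, 51.8, 53.4, 71.0 and 57.4 CPM. Every library at pH 6.6 was above every library at pH 7.4, and the rise was 1.34-fold (log2 0.42 ± 0.09, adjusted p = 8.38e-05).

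Cd160 was at 99.2, 72.7, 58.1, 71.1 and 55.8 CPM at pH 7.4 without IL-2 and at 24.98, 16.9, 18.9, 21.9 and 14.6 CPM at pH 6.6 without IL-2, which was the lowest group for this gene. The difference was 3.66-fold (log2 -1.87 ± 0.12, adjusted p = 2.34e-14), larger in absolute terms than that of 93.8% of genes. Tox went from 9.33, 4.71, 5.93, 3.92 and 4.54 CPM to 4.50, 3.04, 4.45, 2.004 and 2.91 CPM, lower in 5 of 5 replicates (log2 -0.73 ± 0.16, adjusted p = 0.000133). Havcr2 was at 10.9, 22.9, 10.7, 38.9 and 27.1 CPM and at 12.4, 16.5, 7.99, 32.8 and 24.1 CPM, and Btla at 5.62, 2.71, 2.79, 1.25 and 2.10 CPM and at 5.76, 3.27, 4.81, 1.72 and 2.35 CPM. Neither passed the threshold, at log2 fold changes of -0.22 (95% confidence interval -0.49 to 0.06, adjusted p = 0.152) and 0.33 (-0.01 to 0.68, adjusted p = 0.0846). Havcr2 passed as lower without replicate 1 (log2 -0.34, adjusted p = 0.027) and with library totals in place of TMM scaling (log2 -0.37), and Btla passed as higher in DESeq2 (log2 0.37, adjusted p = 0.0434).

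**Figure D3:**
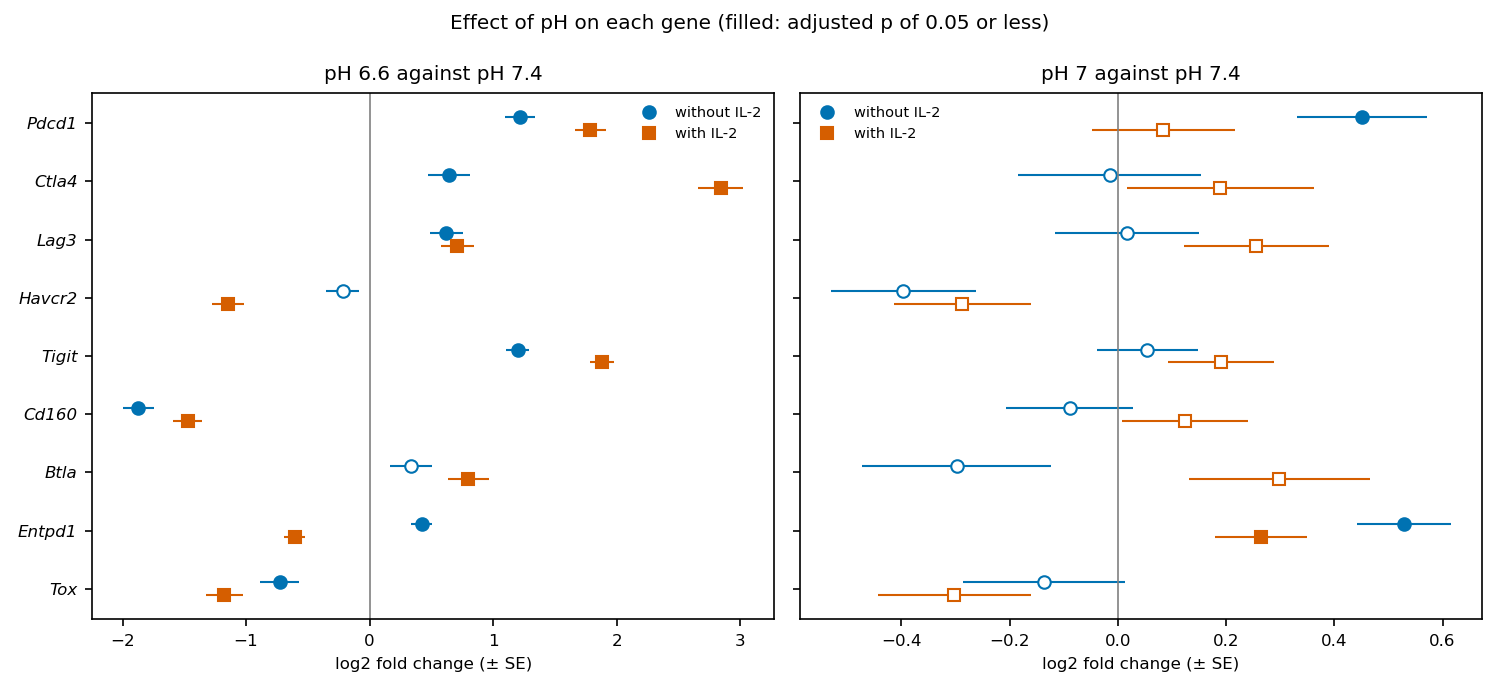
Log2 fold changes with SE bars (x axis) of each gene (y axis) for pH 6.6 against pH 7.4 on the left and pH 7 against pH 7.4 on the right, on different x scales, without IL-2 (blue circles) and with IL-2 (orange squares). Filled symbols passed an adjusted p of 0.05, which all 9 genes did at pH 6.6 with IL-2 and only Entpd1 and Pdcd1 did at pH 7.

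Whether the effect of pH 6.6 differed with IL-2 was tested as an interaction, the log2 fold change of pH 6.6 with IL-2 minus that without. It passed for 6 of the 9 genes, against 67.0% of all genes. The rise of Ctla4 was larger with IL-2 by 2.20 ± 0.24 on the log2 scale (adjusted p = 2.58e-09), in 5 of 5 replicates. The rises of Tigit (0.68 ± 0.13, adjusted p = 3.54e-05) and Pdcd1 (0.57 ± 0.17, adjusted p = 0.00476) were also larger with IL-2 in 5 of 5 replicates. Entpd1, with opposite signs in the 2 arms, gave -1.03 ± 0.12 (adjusted p = 7.19e-09), and Havcr2 gave -0.93 ± 0.19 (adjusted p = 5.76e-05), each negative in 5 of 5 replicates. The fall of Cd160 was smaller with IL-2 by 0.40 ± 0.17 (adjusted p = 0.0375), but only in 3 of 5 replicates. This difference did not pass without replicate 4 (0.30, adjusted p = 0.164) or without replicate 5 (0.25, adjusted p = 0.214). Nor did it pass with the looser filter (adjusted p = 0.0669) or in a fit of only the groups compared (0.0992). Lag3 had nearly the same rise in both arms, with a difference of 0.09 (95% confidence interval -0.30 to 0.47, adjusted p = 0.695). Btla (0.47, adjusted p = 0.0824) and Tox (-0.45, adjusted p = 0.0681) did not pass. Btla passed under the stricter filter and with library totals (adjusted p = 0.047 and 0.0109), and Tox passed without replicate 4 (adjusted p = 0.0421). In a fit without the replicate block 3 genes passed, and Pdcd1, Havcr2 and Cd160 were lost, with adjusted p-values of 0.269, 0.2 and 0.133. The 67.0% belongs to the fit with the block, and the share of all genes without it is not given here.

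The milder step to pH 7 moved few of these genes. With IL-2, Entpd1 alone passed, against 19% of all genes. It was at 170.2, 183, 169.9, 195 and 182 CPM at pH 7, with each of the 5 libraries above each library at pH 7.4, and Entpd1 rose 1.20-fold (log2 0.26 ± 0.08, adjusted p = 0.027). That call was lost without the replicate block (adjusted p = 0.0666) and on leaving out replicate 1, 2, 3 or 4 (log2 0.23 to 0.28 over the 5 omissions, adjusted p up to 0.0915). Ctla4 was at 70.9, 53.5, 54.2, 63.1 and 62.8 CPM at pH 7 with IL-2, overlapping the values at pH 7.4, with a log2 fold change of 0.19 (95% confidence interval -0.16 to 0.54, adjusted p = 0.482). Cd160, the most abundant member here per length, was at 160.3, 140.1, 139.5, 144 and 124 CPM (log2 0.12, adjusted p = 0.496). Tigit was at 11.996, 9.43, 9.90, 8.56 and 8.46 CPM and was higher than at pH 7.4 in 5 of 5 replicates, by a log2 fold change of 0.19 that did not pass (adjusted p = 0.181). Havcr2 was at 28.4, 58.6, 38.7, 86.7 and 69.004 CPM and lower in 5 of 5 replicates, also without passing (log2 -0.29, adjusted p = 0.112). Pdcd1, Lag3, Btla and Tox were in the ranges 4.89 to 11.3, 16.9 to 27.6, 2.07 to 7.23 and 6.24 to 14.7 CPM, all overlapping those at pH 7.4. When only these 2 groups were fitted, 4 of the 9 genes passed, namely Entpd1 and Lag3 upwards and Havcr2 and Tox downwards. The 19% belongs to the fit of all 35 libraries, and the share of all genes in the fit of 2 groups is not given here. Without IL-2, Entpd1 and Pdcd1 passed, against 1.68% of all genes, so these were 2 of only 232 genes. Entpd1 was at 69.9, 64.5, 62.5, 62.8 and 58.1 CPM at pH 7 without IL-2, above all libraries at pH 7.4, and rose 1.44-fold (log2 0.53 ± 0.09, adjusted p = 0.000833). Pdcd1 was at 14.1, 39.9, 27.3, 39.8 and 31.2 CPM and rose in 5 of 5 replicates by 1.37-fold (log2 0.45 ± 0.12, adjusted p = 0.0431). The Pdcd1 call was near the threshold: it was lost on leaving out any 1 of the 5 replicates (log2 0.43 to 0.48, adjusted p up to 0.18) and without the block (adjusted p = 1). Havcr2, at 12.04, 15.5, 8.68, 22.9 and 20.2 CPM, had a log2 fold change of -0.40 (adjusted p = 0.179), which passed without replicate 1 (-0.53, adjusted p = 0.0285) and in a fit of only the 2 groups compared (-0.42, adjusted p = 0.0166). The other 6 genes had log2 fold changes between -0.30 (Btla) and 0.05 (Tigit) with overlapping groups, and Ctla4, at 320.2, 341, 389, 373 and 304 CPM, was almost where it was at pH 7.4 (log2 -0.02, 95% confidence interval -0.36 to 0.33). The interaction of pH 7 and IL-2 passed for 0 of the 9 genes in edgeR and in DESeq2, against 4.79% of all genes. In edgeR 3 genes (Btla, Entpd1 and Pdcd1) had an unadjusted p under 0.05, a looser threshold to which the 4.79% does not apply.

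Over the 9 genes, the median absolute log2 fold change between pH 7 and pH 6.6 was 0.87 with IL-2 and 0.63 without, against 1.18 and 0.64 between pH 7.4 and pH 6.6. All 9 genes passed with IL-2, with 5 higher and 4 lower at pH 6.6, against 72.4% of all genes. For Ctla4 the log2 fold change of this step was 2.65 ± 0.18, for Tigit 1.69 ± 0.10, for Pdcd1 1.70 ± 0.13 and for Cd160 -1.60 ± 0.12. The other 5 genes moved by 0.45 ± 0.13 (Lag3), 0.50 ± 0.16 (Btla), -0.86 ± 0.13 (Havcr2), -0.87 ± 0.09 (Entpd1) and -0.87 ± 0.15 (Tox), of which Havcr2 and Btla did not pass without the replicate block (adjusted p = 0.072 and 0.367). Without IL-2, 7 genes passed, 5 higher and 2 lower, against 66.6% of all genes. Btla and Tox were lost there without the block (adjusted p = 0.393 and 0.0939). Cd160 fell again in that step (log2 -1.78 ± 0.12), Pdcd1 rose (log2 0.77 ± 0.12, beside 1.22 ± 0.12 from pH 7.4), and Entpd1, at log2 -0.11, did not differ detectably between pH 7 and pH 6.6 (95% confidence interval -0.28 to 0.07, adjusted p = 0.275). The comparisons of pH 6.6 with pH 7.4 and with pH 7 share the pH 6.6 libraries, and those of pH 6.6 and pH 7 with pH 7.4 share the pH 7.4 libraries, so they are not independent.

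IL-2 itself moved the genes in opposite directions. At pH 7.4, 7 of the 9 passed, 4 higher and 3 lower with IL-2, against 80.4% of all genes. The corresponding count at pH 7 was 8, with 5 genes higher and 3 lower, against 77.2%. The receptor genes lowered by IL-2 at pH 7.4 were Ctla4, 6.51-fold lower (log2 -2.70 ± 0.18, adjusted p = 1.03e-14), Pdcd1 (log2 -1.39 ± 0.13, adjusted p = 1.13e-11) and Tigit (log2 -0.97 ± 0.10, adjusted p = 6.79e-11). Those raised were Entpd1 (log2 1.76 ± 0.09, adjusted p = 1.65e-18), Havcr2 (log2 1.70 ± 0.13, adjusted p = 1.76e-13), Cd160 (log2 0.89 ± 0.12, adjusted p = 3.36e-08) and Tox (log2 0.81 ± 0.15, adjusted p = 6.95e-06). In these 7 cases the 5 replicates moved the same way, and the groups of Pdcd1, Havcr2 and Tox overlapped. How many of all genes did so was not counted, so this does not set the 7 apart. Btla did not pass at pH 7.4 (0.13, adjusted p = 0.484) but was higher with IL-2 at pH 7 in 5 of 5 replicates (log2 0.73 ± 0.17, adjusted p = 0.000278), a call lost without the block (adjusted p = 0.273). Lag3 was the only member that did not pass at any pH. Its differences were -0.25 (95% confidence interval -0.53 to 0.02), -0.02 (-0.29 to 0.25) and -0.17 (-0.44 to 0.10) at pH 7.4, pH 7 and pH 6.6, and at pH 7.4 it passed as lower in 4 of the 12 alternatives, among them without replicate 1 (adjusted p = 0.0283).

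At pH 6.6, 6 of these 7 genes (all but Tox) and Btla passed for IL-2, 4 higher and 3 lower, against 23.7% of all genes. Over all 9 genes the median absolute log2 fold change was 0.60, against 0.19 over all genes tested. Cd160 was 2.44-fold higher with IL-2 with no overlap (log2 1.29 ± 0.12, adjusted p = 1.46e-09), an absolute change larger than that of 97.0% of genes. Entpd1 was 1.67-fold higher, also with no overlap (log2 0.74 ± 0.09, adjusted p = 8.37e-08). Pdcd1 was lower (log2 -0.82 ± 0.12, adjusted p = 4.10e-06), and Havcr2 (log2 0.77 ± 0.13, adjusted p = 5.29e-05) and Btla (log2 0.60 ± 0.16, adjusted p = 0.00696) were higher, each in 5 of 5 replicates with overlapping groups. Ctla4, so far apart at pH 7.4, was slightly lower with IL-2 (log2 -0.51 ± 0.17, adjusted p = 0.028), and so was Tigit (log2 -0.29 ± 0.09, adjusted p = 0.0172). Neither call was stable: Ctla4 lost it without replicate 1, 2, 4 or 5 (adjusted p up to 0.113) and with the looser filter, and Tigit without replicate 1, 2, 3 or 4 (up to 0.0794) and with library totals. Tox was 0.36 higher on the log2 scale (adjusted p = 0.0954) and did not pass. It passed with library totals (adjusted p = 0.0471) and in a fit of only the groups compared (0.0246). Without the replicate block 3 of the 9 genes passed, and Pdcd1, Havcr2, Tigit and Btla were lost, with adjusted p-values of 0.0664, 0.224, 0.107 and 0.435. The 23.7% belongs to the fit with the block, and the share of all genes without it is not given here.

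**Figure D4:**
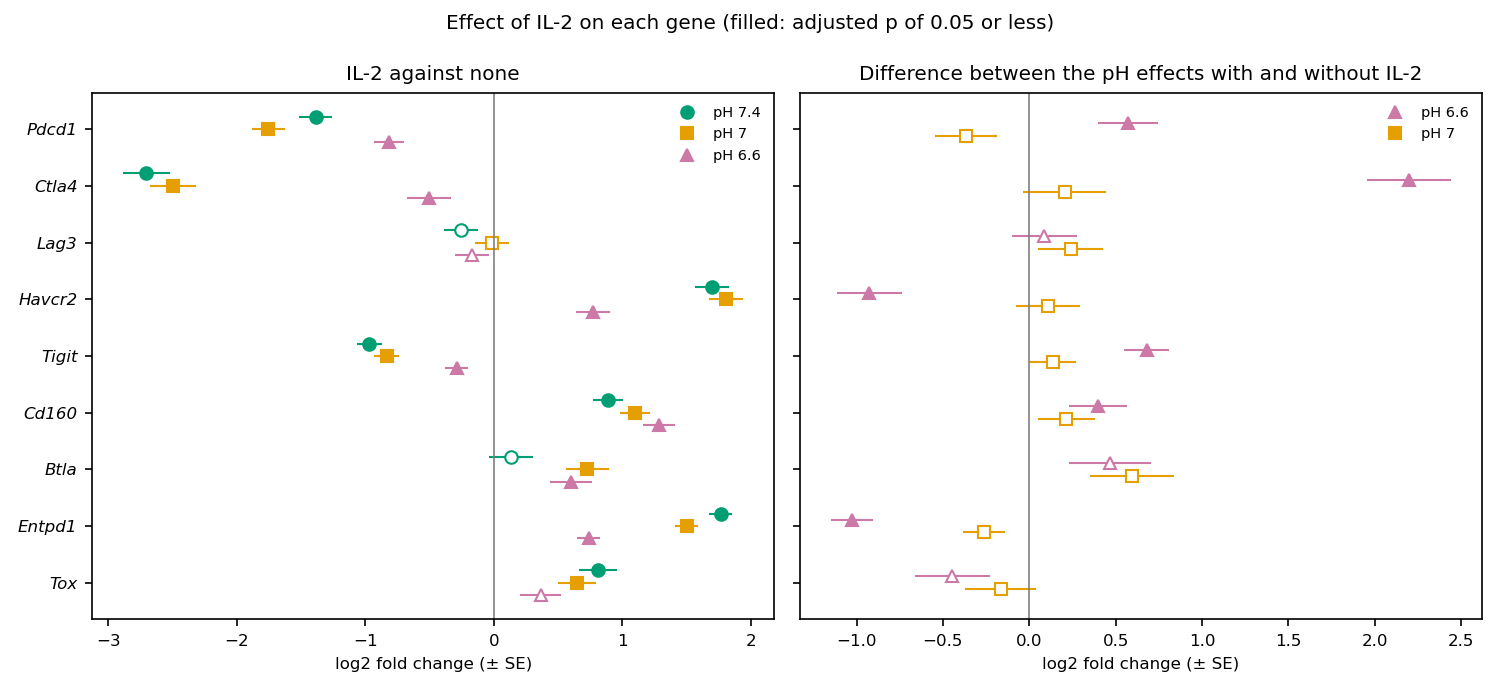
On the left, log2 fold changes with SE bars (x axis) of each gene (y axis) for IL-2 against none at pH 7.4 (circles), pH 7 (squares) and pH 6.6 (triangles). On the right, the difference between the pH effects with and without IL-2, for pH 6.6 (triangles) and pH 7 (squares), where filled symbols passed an adjusted p of 0.05. The triangles of Pdcd1, Ctla4, Havcr2, Tigit and Entpd1 on the left lie nearer to 0 than their circles.

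The 24 h groups were also compared with the 0 h cells, and these 6 comparisons share the 0 h libraries. At 0 h, Lag3 was at 79.6, 54.6, 50.5, 63.2 and 76.3 CPM in replicates 1 to 5. Havcr2 was at 49.4, 78.0, 57.1, 144 and 92.7 CPM. Both had their highest group means here. Ctla4 was at 228, 131, 142, 233 and 227 CPM, between its levels with IL-2 at pH 7.4 and without IL-2. Cd160 was at 161, 118, 122, 124 and 123 CPM, with replicate 1 above the others, which lay close together. Entpd1 was at 116, 127, 119, 149 and 119 CPM and overlapped its values at pH 7.4 with IL-2. Pdcd1 was at 7.31, 20.02, 19.5, 14.9 and 13.1 CPM. Tigit was at 19.4, 17.1, 19.7, 18.3 and 18.6 CPM, a narrow spread for this gene. Btla was at 8.06, 4.50, 6.83, 2.97 and 2.34 CPM. Tox was at 12.7, 10.3, 11.6, 8.87 and 6.75 CPM, and replicates 4 and 5 were the lowest for both Btla and Tox. Lag3 was lower than at 0 h in all 6 groups and in 5 of 5 replicates of each, by log2 fold changes of -0.84 at pH 6.6 without IL-2 to -1.72 at pH 7.4 with IL-2. Havcr2 was also lower in all 6, most at pH 7 without IL-2 (log2 -2.39 ± 0.14, adjusted p = 1.24e-16) and least at pH 7.4 with IL-2 (-0.29 ± 0.13, adjusted p = 0.0442). That last call was lost in DESeq2 (adjusted p = 0.0518), without the block (adjusted p = 0.525) and without replicate 1, 2, 4 or 5 (adjusted p up to 0.185).

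Without IL-2, 8 genes passed at pH 7.4 against 0 h, of which 2 were higher and 6 lower (75.2% of all genes passed). The count at pH 7 was again 8, with 2 higher (75.4% of all genes). All 9 passed at pH 6.6, where 3 were higher (75.1% of all genes). Ctla4 and Pdcd1 were the genes higher at every pH, with log2 fold changes of 0.86, 0.84 and 1.50 for Ctla4 and of 0.55, 1.01 and 1.77 for Pdcd1 at pH 7.4, pH 7 and pH 6.6. Tigit joined them at pH 6.6 (log2 1.02 ± 0.09, adjusted p = 7.83e-12) and did not pass at pH 7.4 or pH 7. The largest falls were those of Cd160 at pH 6.6 (log2 -2.75 ± 0.13), which was 6.71-fold below its 0 h level, and of Havcr2 at pH 7. Entpd1 fell most at pH 7.4 (log2 -1.51 ± 0.09). Btla was called lower in all 3 groups, but in none without the block (adjusted p = 0.17, 0.0823 and 0.404), and its call at pH 6.6 was also lost without replicate 3 (adjusted p = 0.0563). The Pdcd1 call at pH 7.4 was lost without the block too (adjusted p = 0.104).

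With IL-2, 7 genes passed at pH 7.4 against 0 h, of which only 1 was higher (59.9% of all genes passed). The same numbers held at pH 7 (54.3% of all genes). Of the 8 genes that passed at pH 6.6, 3 were higher and 5 lower (68.5% of all genes). The gene higher at pH 7.4 and pH 7 was Entpd1 (log2 0.25 ± 0.09 and 0.52 ± 0.09, the first lost with library totals, at an adjusted p of 0.0736), and those higher at pH 6.6 were Ctla4 (0.997 ± 0.17), Pdcd1 (0.96 ± 0.12) and Tigit (0.73 ± 0.09). Ctla4 therefore lay below its 0 h level with IL-2 at pH 7.4 (log2 -1.85 ± 0.18, adjusted p = 2.24e-10) and above it at pH 6.6 (adjusted p = 6.63e-06). Cd160 did not differ detectably from 0 h with IL-2 at pH 7.4 (log2 0.01, 95% confidence interval -0.22 to 0.25), where it was at 131 ± 23.2 CPM against 129.5 ± 17.98 CPM (SD, n = 5), nor at pH 7 (log2 0.14, -0.10 to 0.37). Tox was likewise at 10.3 ± 5.73 CPM at pH 7.4 with IL-2 and 10.1 ± 2.34 CPM at 0 h, with replicate 1 at 20.3 CPM in the former group. Without the block 5 genes passed at pH 7.4 and 4 at pH 7, and the shares of all genes in that fit are not given here. At pH 7 the lost calls were Pdcd1, Havcr2 and Tox (adjusted p = 0.057, 0.239 and 0.403), and at pH 7.4 they were Havcr2 and Btla (adjusted p = 0.319 for Btla). The Tox call at pH 7 was also lost without replicate 2, 3 or 4 (adjusted p up to 0.222). The same held with the looser filter (adjusted p = 0.0689) and in a fit of only the groups compared (0.0918).

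Ordered by mean CPM, the 7 groups ran differently for each gene. Neighbours in this order were compared with the same model, in which the share of all genes called between groups that differ in pH and IL-2 alike was 80.9% (pH 7.4 with IL-2 against pH 7 without), 80.8% (pH 7.4 with, pH 6.6 without), 76.9% (pH 7 with, pH 7.4 without), 78.5% (pH 7 with, pH 6.6 without), 64.4% (pH 6.6 with, pH 7.4 without) and 64.7% (pH 6.6 with, pH 7 without). Pdcd1 ran from pH 6.6 without IL-2 (50.8 ± 16.5 CPM) through pH 7 without, pH 6.6 with, pH 7.4 without and 0 h to pH 7 with and pH 7.4 with IL-2 (8.51 ± 3.10 CPM). The neighbours not told apart were pH 7 without and pH 6.6 with IL-2, and pH 7 and pH 7.4 with IL-2. Ctla4 ran from pH 6.6 without IL-2 (546 ± 60.3 CPM) to pH 7.4 with IL-2 (54.2 ± 16.7 CPM), and pH 6.6 with, pH 7.4 without and pH 7 without IL-2 were not told apart, nor were pH 7 and pH 7.4 with IL-2. Tigit ran from pH 6.6 without (38.3 ± 6.61 CPM) and pH 6.6 with IL-2 to 0 h, pH 7 without and pH 7.4 without IL-2, which were not told apart, and ended with the IL-2 groups at pH 7 and pH 7.4 (8.49 ± 1.35 CPM), also not told apart.

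Lag3 was highest at 0 h (64.8 ± 12.9 CPM), followed by pH 6.6 without and with IL-2, which were not told apart, and its other 4 groups, from 24.1 ± 3.36 CPM at pH 7 without IL-2 down to 20.4 ± 6.59 CPM at pH 7.4 with IL-2, could not be told apart from their neighbours. Havcr2 ran from 0 h (84.3 ± 37.7 CPM) over the IL-2 groups at pH 7.4, pH 7 and pH 6.6 to the groups without IL-2, which were not told apart from each other as neighbours (15.8 ± 5.79 CPM at pH 7, the lowest). Cd160 was highest at pH 7 with IL-2 (142 ± 12.9 CPM), pH 7.4 with IL-2 and 0 h, with no difference between these neighbours, then came pH 7.4 and pH 7 without IL-2, again not told apart, and then pH 6.6 with and pH 6.6 without IL-2 (19.5 ± 4.10 CPM). Entpd1 ran from pH 7 with IL-2 (180.1 ± 10.4 CPM) over pH 7.4 with, 0 h and pH 6.6 with IL-2 to the groups without IL-2, and only pH 7 and pH 6.6 without IL-2 were not told apart. Tox ran from pH 7.4 with IL-2 (10.3 ± 5.73 CPM) and 0 h, not told apart, to pH 6.6 without IL-2 (3.38 ± 1.08 CPM). At pH 7.4 with IL-2 replicate 1 was at 20.3 CPM, and the median of 8.64 CPM lay below the 10.3 CPM at 0 h. The only neighbouring Tox steps that passed were from 0 h to pH 7 with IL-2 and from there to pH 7.4 without IL-2. Both were lost without the replicate block (adjusted p = 0.403 and 0.116). For Btla, between libraries at 2.75 to 10.2 CPM at pH 6.6 with IL-2 and at 0.656 to 6.13 CPM at pH 7 without IL-2, no neighbours were told apart. The step from 0 h to pH 7 with IL-2 was near the threshold (log2 -0.36, adjusted p = 0.0571). It passed in DESeq2 (adjusted p = 0.0438), with library totals (0.0486), with the stricter filter (0.0455) and without replicate 1 (0.0378) or 5 (0.0182).

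Cells at pH 6.6 with IL-2 were also set against cells at pH 7.4 without IL-2. Of the 9 genes, 8 passed, 6 higher at pH 6.6 with IL-2 and 2 lower, against 64.4% of all genes. The median absolute log2 fold change was 0.55 over the 9 genes and 0.43 over all genes tested. Ctla4 did not pass (log2 0.14, 95% confidence interval -0.20 to 0.48, adjusted p = 0.479). Pdcd1 (log2 0.40 ± 0.12), Lag3 (0.45 ± 0.13), Havcr2 (0.55 ± 0.13) and Btla (0.93 ± 0.17) were higher at pH 6.6 with IL-2 in 5 of 5 replicates with overlapping groups. Tigit (0.91 ± 0.09, adjusted p = 3.67e-10) and Entpd1 (1.16 ± 0.09, adjusted p = 4.59e-13) were higher with no overlap. Cd160 (-0.59 ± 0.12, adjusted p = 7.52e-05) and Tox (-0.36 ± 0.15, adjusted p = 0.0375) were lower, in 5 of 5 and 4 of 5 replicates. Without the replicate block 4 genes passed, and Pdcd1, Havcr2, Btla and Tox were lost (adjusted p = 0.323, 0.283, 0.118 and 0.237). The 64.4% belongs to the fit with the block, and the share of all genes without it is not given here. The Tox call was also lost without replicate 1, 2, 3 or 5 (log2 -0.46 to -0.27 over the 5 omissions, adjusted p up to 0.115).

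For 4 of the genes, much of the spread within groups went with the replicate number. The labels describe CTLs of 5 biological replicates placed in each condition, so a number marks the same starting cells. Pdcd1 was lowest in replicate 1 in 7 of 7 groups, with a mean deviation from the group mean of -0.91 on the log2 scale. Havcr2 was highest in replicate 4 in 7 of 7 groups (mean deviation 0.83) and was below the group mean in replicates 1 and 3 in all 7 (-0.63 and -0.66). Btla and Tox were each highest in replicate 1 in 7 of 7 groups (1.10 and 0.68). The replicate number took up 90.5% of the variance within groups for Havcr2, 90.4% for Btla, 88.7% for Pdcd1 and 79.0% for Tox. For Tigit, Lag3, Cd160 and Entpd1 the share was 61.5%, 58.4%, 53.8% and 32.9%, and for Ctla4 9.50%. Over all genes tested the median share was 26.6% and the 90th percentile 57.4%. Once the replicate means were taken out, the SD of log2 CPM within groups fell from 0.68 to 0.23 for Havcr2, from 0.82 to 0.27 for Btla and from 0.57 to 0.21 for Pdcd1.

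**Figure D5:**
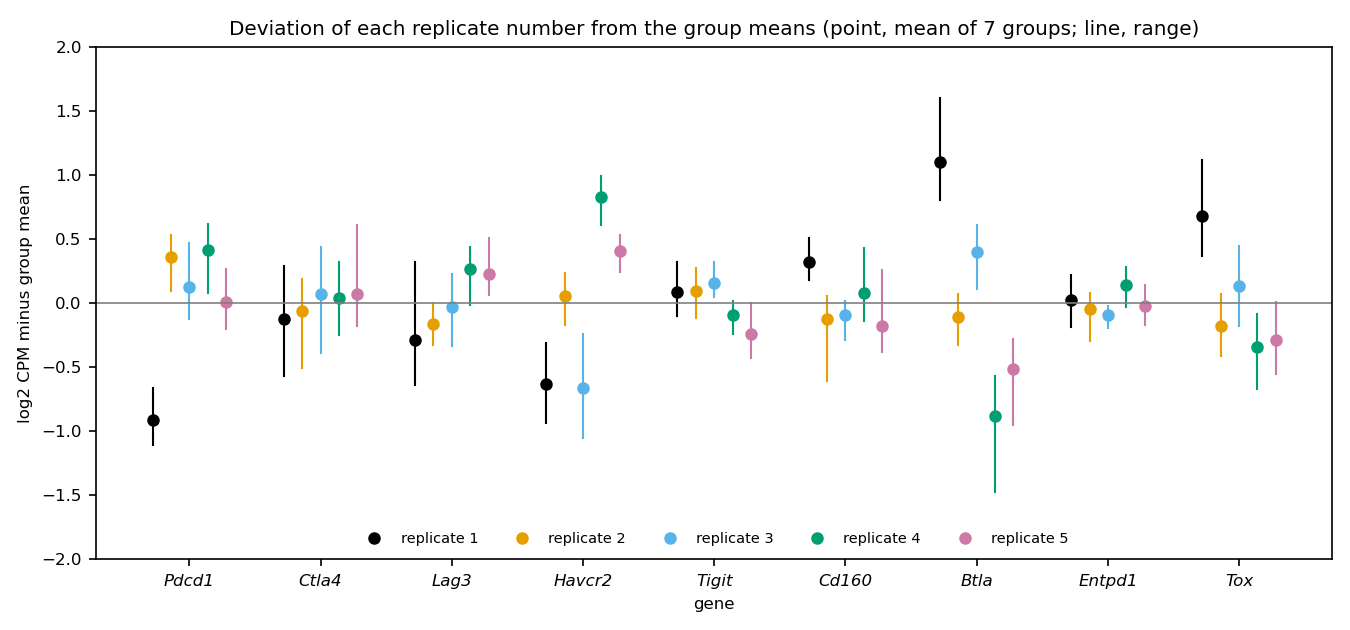
Deviation of log2 CPM from the group mean (y axis) for each gene (x axis) and replicate number (colours), with the mean over the 7 groups as a point and the range over the groups as a line. The lines of replicate 1 lie wholly below 0 for Pdcd1 and wholly above 0 for Btla and Tox, and that of replicate 4 lies wholly above 0 for Havcr2, while the lines of Ctla4 all cross 0.

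The ligands of these receptors were measured in the same cells. Of 12 ligand genes, 10 were tested, and Nectin2 (at most 7 reads) and Fgl1 (no reads) were not. At pH 6.6 against pH 7.4 with IL-2, where 76.3% of all genes passed, 3 rose, 4 fell and 3 did not pass. The median log2 fold change of the 10 was 0.05, against -0.07 over all genes. Tnfrsf14, whose product HVEM is the ligand of BTLA and CD160, rose from 13.1 to 22.3 CPM (log2 0.78 ± 0.13, adjusted p = 1.95e-06). The genes for the CTLA-4 ligands fell, Cd86 from 1.87 to 0.807 CPM (log2 -1.21 ± 0.21) and Cd80 from 4.80 to 3.62 CPM (-0.46 ± 0.17). The gene of the PD-1 ligand PD-L2, Pdcd1lg2, fell from 11.8 to 7.96 CPM (-0.58 ± 0.13). With IL-2 at pH 7.4, 3 ligand genes were higher and 6 lower than without, where 80.4% of all genes passed. Among them were Tnfrsf14 (log2 -1.93 ± 0.13, lower), Cd86 (-1.19 ± 0.18, lower), Pdcd1lg2 (1.04 ± 0.14, higher) and Lgals3, which encodes galectin-3 (0.65 ± 0.11, higher).

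Among 13 other inhibitory receptor genes 12 were matched and tested. At pH 6.6 with IL-2, 6 rose, 4 fell and 2 did not pass, so that 10 of 12 passed, against 76.3% of all genes. The median log2 fold change was 0.21, against -0.07 over all genes. Adora2a, an adenosine receptor gene, rose from 4.40 to 45.0 CPM (log2 3.34 ± 0.15, adjusted p = 2.30e-19) and Cd101 from 6.06 to 20.8 CPM (1.78 ± 0.11). Klrg1, a receptor of terminal effector cells (-2.18 ± 0.18), and Lair1, a collagen receptor (-2.05 ± 0.15), fell. IL-2 at pH 7.4, where 80.4% of all genes passed, lowered 8 of the 12, among them Adora2a (-2.36 ± 0.15), Cd101 (-2.35 ± 0.11) and Klrg1 (-1.42 ± 0.14), and raised 2, of which Lair1 was at 1.57 ± 0.15. Of 13 signalling partners at pH 6.6 with IL-2, 3 rose, 4 fell and 6 did not pass, so that 7 of 13 passed, against 76.3% of all genes. The median log2 fold change of the partners was -0.04, against -0.07 over all genes. Nt5e, which encodes the enzyme CD73 that acts after CD39, rose from 63.5 to 425 CPM (log2 2.76 ± 0.10, adjusted p = 2.76e-21), while Entpd1 itself fell. Trat1, an adaptor of the T cell receptor complex, rose (1.89 ± 0.19), and Ptpn6 (-1.04 ± 0.11) and Ptpn11 (-0.73 ± 0.07), the genes of the phosphatases SHP-1 and SHP-2, fell. IL-2 at pH 7.4, where 80.4% of all genes passed, raised 6 partners and lowered 4. Ptpn6 was higher (1.19 ± 0.11) and Cd28 (-1.003 ± 0.13), Nt5e (-1.46 ± 0.10) and Trat1 (-1.66 ± 0.19) were lower.

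Tox belongs to a family of which Tox2 (at most 2 reads) was not tested. In a list of 21 Tox family and exhaustion-linked transcription factor genes, 20 were tested, and 7 rose, 8 fell and 5 did not pass at pH 6.6 with IL-2, where 76.3% of all genes passed. The median log2 fold change of the list was -0.06, against -0.07 over all genes. Tox fell there while Ikzf2, which encodes Helios, rose from 6.29 to 110.3 CPM (log2 4.13 ± 0.19), Nr4a1 from 1.34 to 16.6 CPM (3.63 ± 0.28), Nr4a2 from 7.09 to 27.3 CPM (1.92 ± 0.17) and Tcf7, the gene of the memory-associated factor TCF-1, from 41.9 to 395 CPM (3.23 ± 0.10). IL-2 at pH 7.4 raised 12 of the 20 and lowered 4, and the 16 of 20 that passed stand against 80.4% of all genes. Tox was among those raised, with Eomes (log2 2.10 ± 0.09) and Nr4a3 (1.78 ± 0.19), and Tcf7 (-4.38 ± 0.10) and Ikzf2 (-4.13 ± 0.19) were lowered.

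The genes whose log2 CPM followed each member most closely over the 35 libraries were sought among 10659 genes, as a description that carries no test, since all libraries share the same 7 groups and 5 replicates. Ctla4 was followed by Tsc22d3 (Pearson r = 0.989), a glucocorticoid-induced gene, Parp6 (0.988) and Pttg1ip (0.982). Cd160 was followed by Zfp202 (0.968) and Dph6 (0.963), and Tigit by Pnpla8 (0.966), Rbm39 (0.960) and Ccnl2 (0.958). Entpd1 was closest to Slc9a5 (0.959), Cdca7 (0.958) and Tgm2 (0.955), and Havcr2 to Crisp1 (0.939) and the granzyme genes Gzmd (0.928) and Gzme (0.923). Pdcd1 was closest to Zcchc14 (0.933), Itgb5 (0.931) and Tbc1d30 (0.929), and Lag3 to Dlg4 (0.924), Espn (0.920) and Tnfrsf18, which encodes the receptor GITR (0.916). Tox was followed by Casc4 (0.886), Zbtb18 (0.883) and Rell2 (0.856). Btla, with the fewest reads, had the lowest values, with Plekha6 (0.760), Myo1c (0.759) and Tgfb3 (0.731). No member was among the 3 closest genes of another member.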

How the data were processed

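Polyadenylated RNA from OT-I CTLs was prepared with stranded TruSeq reagents and sequenced as single reads on an Illumina HiSeq instrument. The authors deposited 1 table per library with raw read counts per Ensembl gene, without normalization. The submitters' processing notes name cutadapt 1.8, STAR 2.5.2b, HTSeq 0.6.1 and GRCm38. Read length, annotation release and the strand setting are not given in the sources used here. The last 5 lines of a table, which count reads assigned to no gene, were set aside. Total counts on genes were 16721319 to 34033340 per library (median 24730020). Every member had at least 16 reads in every library. Reads aligned to more than 1 place were not counted on genes. Their entry was a median of 37.1% of all counts deposited for a library, where such a read may count once per place. Of the 50-base windows of each member's transcripts, 99.2% to 100% were unique in GENCODE M21. On the opposite strand, Pdzk1 overlaps 2.57% of the exon bases of Cd160 and Gm11802 overlaps 3.42% of those of Tox, so that reads there cannot be assigned if strand was ignored.

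In R 4.3.3, edgeR 4.0.16 kept 13819 genes (filterByExpr, minimum count 10) and applied TMM scaling. Its quasi-likelihood model (robust) took the 35 libraries together, with terms for group and replicate number, following the paired tests of the study, with Benjamini-Hochberg adjustment over all genes tested and a threshold of 0.05. Fold changes are given as the named condition over its reference, with SE and 95% confidence intervals on the log2 scale. CPM are TMM-scaled counts per 1000000 reads. TPM use the merged exon length of GENCODE M21. The design text of the series says that CTLs of 5 biological replicates were placed in each condition, which is where the pairing by number comes from. Deviations from group means correlated over 0.1 in 95 of 105 same-numbered pairs of libraries (median r 0.273, against -0.0745 for other numbers). None of 70 pairs of libraries within groups was a duplicate (lowest chi-square per degree of freedom 6.65). Alternatives were RLE scaling, library totals, DESeq2 1.42.0, looser and stricter filters, no replicate block, a fit of only the groups compared, and leaving out each replicate number. Before use, the model was run on simulated counts that had no replicate effect and few changed genes. Such counts cannot test the replicate block, nor the TMM scaling where most genes change.

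The members, the gene lists and the tests were chosen with earlier results of these data known. Named genes are the 9 members, the 3 genes most like each (of which 1 is not reported here) and, from each of 4 lists, the 4 genes of largest change past the threshold (mean log2 CPM of 1 or more), at pH 6.6 against pH 7.4 with IL-2 and with IL-2 against none at pH 7.4. Nectin2, Fgl1 and Tox2, which were not tested, are named outside that rule. Promoter windows are those of RefSeq, and Lag3 and Tox were not analysed there.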

Additional observations from a re-analysis of the deposited data

Results flagged for a closer look

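Each member's 5 CPM values in each of the 7 groups were searched for a value that stood apart by Dixon's test, which marks about 1 in 20 groups by chance, and 3 of 63 were marked. Replicate 1 was the highest library in all 3: Cd160 at 161 CPM at 0 h, Tox at 20.3 CPM at pH 7.4 with IL-2 and Tox at 14.7 CPM at pH 7 with IL-2. For Cd160 the other 0 h libraries lay between 118 and 124 CPM.

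The effect of pH 6.6 against pH 7.4 differed with and without IL-2 for 6 of the 9 genes by the interaction test in edgeR. The share over all genes tested was much the same, at 67.0%. The differences on the log2 scale were 2.20 for Ctla4 (adjusted p = 2.58e-09), 0.68 for Tigit (3.54e-05), 0.57 for Pdcd1 (0.00476), 0.40 for Cd160 (0.0375), -0.93 for Havcr2 (5.76e-05) and -1.03 for Entpd1 (7.19e-09). Only Entpd1 changed past the threshold in opposite directions in the 2 arms.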

How the results depend on the processing

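Across 135 pairs of member and comparison, in the 15 comparisons of pH, IL-2 or time, 94 passed, and none of these changed direction in any of 12 alternatives. The counts of members passing moved by more than 1.5 times in these cases. Without the replicate block, the count was 0 for pH 7 against pH 7.4 with IL-2 (1 with the block), 1 for the same step without IL-2 (2), 3 for IL-2 at pH 6.6 (7), 3 for the interaction at pH 6.6 (6) and 4 for pH 7 with IL-2 against 0 h (7). In these 15 comparisons the block changed the calls given in the report and no others. For the 8 comparisons of pH 6.6 with pH 7 and of groups that differ in both pH and IL-2, the block and the omission of each replicate were tested after the data had been seen, and the other alternatives were not run. Without the block 12 of their 62 calls were lost, for Btla, Tox, Havcr2 and Pdcd1, and the count moved by more than 1.5 times only for pH 6.6 with IL-2 against pH 7.4 without (4, against 8). For pH 7 against pH 7.4 without IL-2 the count was 1 with RLE scaling and 1 with the stricter filter, and 1 to 2 on leaving out each replicate. For the same step with IL-2 it was 4 in a fit of only the groups compared and 0 to 1 on leaving out each replicate. The shares of all genes that passed in the alternatives are not given here, so these counts are not set against them.

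Direction changed only for differences near 0, given here on the log2 scale. With library totals, Btla under IL-2 at pH 7.4 was at -0.028 and Cd160 at pH 7.4 with IL-2 against 0 h at -0.051. That Cd160 difference was -0.0011 with the stricter filter and -0.011 with only the groups compared. Lag3 under IL-2 at pH 7 was at 0.0059 with the looser filter, and Tox at pH 7.4 with IL-2 against 0 h at 0.033 without the replicate block. On leaving out each replicate, the ranges that crossed 0 were -0.033 to 0.067 for Cd160 and -0.280 to 0.033 for Tox at pH 7.4 with IL-2 against 0 h, -0.012 to 0.356 for Ctla4 with IL-2 and -0.067 to 0.036 for Ctla4 without IL-2 at pH 7 against pH 7.4, -0.031 to 0.094 for Lag3 in that last comparison, -0.087 to 0.011 for Lag3 under IL-2 at pH 7, -0.013 to 0.203 for the interaction of Lag3 at pH 6.6 and -0.014 to 0.217 for that of Havcr2 at pH 7. Among the 8 added comparisons, Lag3 at pH 7 with IL-2 against pH 7.4 without was at -0.0059 without the replicate block and at -0.112 to 0.057 on leaving out each replicate, where Btla at pH 7 with IL-2 against pH 6.6 without was at -0.0072 to 0.178 and Pdcd1 at pH 6.6 with IL-2 against pH 7 without at -0.127 to 0.043. The causes were not tested.

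Library totals in place of TMM scaling moved the median of all genes by up to 0.23 on the log2 scale, in the interaction at pH 6.6, and leaving out replicate 1 moved it by 0.10 there. Depth limits Btla and Tox most, with as few as 16 and 49 reads in a library. Counting error is not the only error, since reads carry no molecular identifiers.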
